A study of Mus musculus with 3 samples.

Results

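The transcripts followed here are those of 10 mouse genes that store, buffer and move zinc, copper and iron, namely the metallothioneins Mt1 and Mt2, the zinc and iron transporters Slc39a14, Slc30a1, Tfrc and Slc40a1, the ferritin chains Fth1 and Ftl1, the ferroxidase Cp and the heme oxygenase Hmox1. They were chosen by name, with earlier results of these data known, and all 10 were found among the 24698 genes of the merged count table. The cells came from testes of adult C57BL/6 mice aged 8 to 12 weeks and were sorted as Sca1+/cKit- interstitial cells, a gate that enriches for mesenchymal progenitors. All 3 libraries shared the same culture, in which 100000 cells per well recovered for 18 h on Matrigel in medium with serum and then expanded for 3 days with PdgfAA, PdgfBB and Fgf2 (10 ng/ml of each) and the hedgehog agonist SAG (0.5 µM). A differentiation medium that kept these 4 factors and added 5 mM LiCl2 and the Notch pathway inhibitor DAPT at 10 µM was then used to direct the cells toward Leydig cells, the testosterone-making cells of the interstitium. One Drop-seq library was made on each of day 4, day 7 and day 14, and the labels do not state how many animals went into a library. The day 7 cells had spent 3 days in the differentiation medium, which places the change of medium at about day 4, when cells were taken after expansion. With 1 library per day, the day, the medium and the library cannot be told apart, and no test between days or cell classes was made. Intervals below cover counting error only.

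Metallothioneins are small cysteine-rich proteins that bind zinc and copper. Their genes are switched on when free zinc activates the transcription factor Mtf1, which binds metal response elements near the start of transcription. Iron enters cells bound to transferrin through the receptor Tfrc, is stored inside the ferritin shell built from heavy (Fth1) and light (Ftl1) chains, and leaves through ferroportin (Slc40a1), after which a ferroxidase such as ceruloplasmin (Cp) oxidizes it. Iron-responsive elements, short hairpins in the messenger RNA, let the iron regulatory proteins block translation of ferritin and ferroportin and stabilize the receptor transcript when iron is scarce, so transcript counts of these genes do not give protein levels. Leydig cells need iron for heme, which the steroid-making cytochromes carry.

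The sequences near the metallothionein starts are shown because Mt1 and Mt2 had the largest changes among the 10 genes. Mt1 (chr8:94179082-94180327, plus strand, GRCm38, GENCODE M21) and Mt2 (chr8:94172664-94173568, plus strand) are neighbours, with 5513 bases between them. The 250 bases before the RefSeq start of each gene (GRCm38.p6, plus strand, chr8:94178839-94179088 for Mt1 and chr8:94172368-94172617 for Mt2) read as follows, with matches to the core of the metal response element, TGCACNC or TGCGCNC on either strand, in capitals.
Mt1: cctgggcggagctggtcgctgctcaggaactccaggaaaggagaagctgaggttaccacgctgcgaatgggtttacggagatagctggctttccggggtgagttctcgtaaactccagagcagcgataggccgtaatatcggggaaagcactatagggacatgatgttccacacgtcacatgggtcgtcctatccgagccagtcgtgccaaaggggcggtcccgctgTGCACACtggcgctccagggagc
Mt2: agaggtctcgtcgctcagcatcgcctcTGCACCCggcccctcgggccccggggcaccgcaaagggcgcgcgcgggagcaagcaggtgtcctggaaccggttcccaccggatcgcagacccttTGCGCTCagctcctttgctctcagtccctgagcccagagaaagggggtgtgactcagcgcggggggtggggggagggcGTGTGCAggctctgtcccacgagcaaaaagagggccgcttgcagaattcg
In the RefSeq window of 300 bases, which runs 50 bases past the start, Mt2 held 4 matches and Mt1 held 3. Of 32851 mouse promoter windows of that length, 25.7% held at least 1 match, 1.97% held at least 3 and 0.517% held at least 4. The first annotated start of Mt1 lies 129 bases before the second one at position 94179211, and that stretch held 4 matches, which fall in the following 2 pieces of 29 bases (chr8:94179089-94179117 and chr8:94179169-94179197, plus strand).
Mt1, first piece: tcTGCACTCcgcccgaaaagTGCGCTCgg
Mt1, second piece: tgctGGGTGCAaacccttTGCGCCCggac
The 2 matches of the first piece lie in the 50 bases past the RefSeq start and are among the 3 counted for Mt1 above. Slc30a1, the zinc exporter, held 2 matches in its window, as did 1 of the 2 windows of Tfrc, and the windows of Fth1, Ftl1 and Cp held none. A match in letters is not a binding site, and RefSeq windows were found for 7 of the 10 genes.

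The iron genes are better known for elements in their messenger RNA. A hairpin of the form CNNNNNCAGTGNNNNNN, with its 5 stem bases paired and G-T pairs allowed, was searched in 1 GENCODE M21 transcript per gene. It was found outside the coding sequence in 124 of 21951 genes (0.565%), and 4 of the 10 genes were among them. Fth1, Ftl1 and Slc40a1 each held 1 in the 5′ UTR and Tfrc held 4 in the 3′ UTR. The hairpins are shown with the loop in capitals, each from GRCm38, at chr19:9982732-9982760 (plus), chr7:45459779-45459807 (minus), chr1:45925465-45925493 (minus) and, for Tfrc, chr16:32631219-32631247, chr16:32631598-32631626, chr16:32631663-32631691 and chr16:32631710-32631738 (plus).
Fth1: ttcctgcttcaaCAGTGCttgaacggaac
Ftl1: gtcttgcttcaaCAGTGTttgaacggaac
Slc40a1: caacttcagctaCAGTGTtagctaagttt
Tfrc, hairpin 1: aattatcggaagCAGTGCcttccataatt
Tfrc, hairpin 2: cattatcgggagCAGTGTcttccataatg
Tfrc, hairpin 3: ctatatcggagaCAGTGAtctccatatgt
Tfrc, hairpin 4: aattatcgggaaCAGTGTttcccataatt
Fth1 and Ftl1 carry nearly the same hairpin.

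The day 4, day 7 and day 14 libraries held 2980, 2171 and 973 cell barcodes and 12677110, 11627440 and 5324400 unique molecular identifiers (UMIs, each counting 1 captured transcript), with medians of 2886.5, 3285 and 3272 UMIs per barcode. No barcode was shared between libraries. Within each library, however, 43.8%, 47.3% and 51.8% of barcodes shared their first 11 of 12 bases with another barcode, mostly in groups of 4, and 662 of 752 such groups fell in 1 cell class, so barcodes were not counted as independent cells and levels are given as UMIs summed over a pool and scaled to 1000000 UMIs (CPM). Clustering without the genes studied here gave 5 classes, named by markers: differentiating myofibroblast-like and proliferating progenitor-like (2218 and 587 barcodes on day 4), ECM myofibroblast-like (1274 on day 7, beside 478 proliferating progenitor-like), and differentiating Leydig-like and Leydig-like (528 and 412 on day 14). A cluster led by the elastin gene Eln (97, 280 and 12 barcodes on days 4, 7 and 14) passed 6 of 10 interstitial progenitor markers but had 1 marker of another class and none of its own among its 10 leading genes, and stayed unnamed. Genes of the interferon response, such as Ifit3 and Isg15, were among the leading genes of the 3 differentiating myofibroblast-like clusters, which were named by the median of their marker list, and 2 of these clusters had no marker of the class among their 10 leading genes. A cluster of 56 barcodes mixed macrophage and spermatid genes, and its 3 barcodes on day 14 held 95.5% of that library's macrophage marker UMIs. The rebuilt classes may differ from those of the study.

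Metallothionein transcripts were the most changed of the set. Mt1 stood at 556 CPM on day 4 (95% Poisson interval 543 to 569), 842 CPM on day 7 (826 to 859) and 3644 CPM on day 14 (3593 to 3696). Mt2 stood at 131, 146 and 1107 CPM on the same days. Both genes were far higher on day 14, and the intervals of the 3 days did not overlap for either gene. For Mt2 those of day 4 and day 7 lay close, at 124.7 to 137.4 and 139.5 to 153.5 CPM. The mixed macrophage and spermatid cluster held 5.54% of Mt2 UMIs on day 4 and 6.46% on day 7. It held 0.86% and 0.28% of all UMIs of those days. From day 4 to day 14, Mt1 rose 6.55-fold (6.38 to 6.74) and Mt2 8.46-fold (8.01 to 8.93), which placed them at the 96.7th and 97.4th percentiles of the 12712 genes with at least 20 UMIs. Nearly all of that rise fell between day 7 and day 14, at 4.33-fold for Mt1 and 7.56-fold for Mt2, while from day 4 to day 7 the ratios were 1.51 and 1.12.

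**Figure D1:**
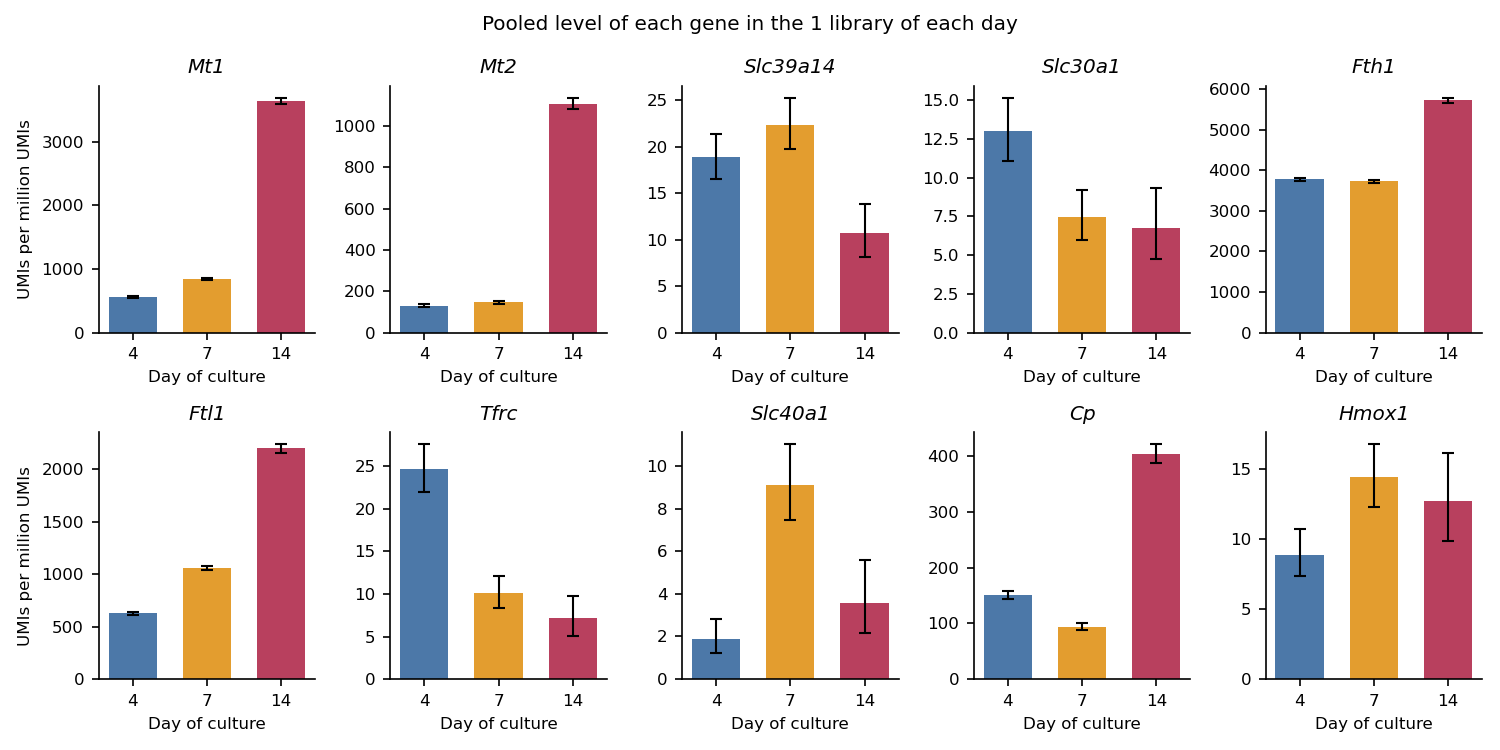
Bars give CPM for each of the 10 genes in the library of day 4, day 7 and day 14, on axes that start at 0, and error bars give the 95% Poisson interval (counting error only). Mt1, Mt2, Ftl1 and Cp are highest on day 14, Tfrc is highest on day 4 at 24.7 and Slc40a1 is highest on day 7 at 9.12.

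Across the 10 genes, 4 rose at least 2-fold from day 4 to day 14 (Mt1, Mt2, Ftl1 and Cp), where 16.3% of all genes did, and 1 fell at least 2-fold (Tfrc), where 17.6% did. From day 7 to day 14 the same 4 genes rose, against 12.4% of all genes, and Slc39a14 and Slc40a1 fell, against 16.6%. From day 4 to day 7, Slc40a1 rose, against 5.39% of all genes, and Tfrc fell, against 4.33%. The median log2 ratio of the 10 genes from day 4 to day 14 was 0.76, beside -0.06 over all genes tested. The comparisons share libraries and are not independent of each other.

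Both classes of day 14 held high metallothionein levels. Mt1 stood at 4207 CPM in Leydig-like and 2887 CPM in differentiating Leydig-like barcodes of day 14, and Mt2 at 1272 and 911 CPM. Both classes exceeded every pool of day 4 and day 7 with at least 50 barcodes. The ratios of Leydig-like over differentiating Leydig-like barcodes were 1.46 (1.413 to 1.504) for Mt1 and 1.40 (1.32 to 1.48) for Mt2. Hsd3b1 and Insl3, a steroid dehydrogenase and a peptide hormone of Leydig cells that served to name the Leydig-like class, stood in differentiating Leydig-like barcodes at 5.65% and 20.2% of their Leydig-like level. What part of these counts was RNA released by lysed cells was not tested.

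On the earlier days, the Eln-led cluster stood apart. Its Mt1 level was 1904 CPM on day 4 and 1822 CPM on day 7, and its Mt2 level was 657 and 419 CPM. The remaining large pools of those days lay between 450 and 698 CPM for Mt1 and between 75.5 and 96.1 CPM for Mt2, and the 78 differentiating myofibroblast-like barcodes left on day 7 lay between, at 1217 CPM for Mt1 and 381 CPM for Mt2. On day 4 the Eln-led cluster exceeded differentiating myofibroblast-like barcodes 4.11-fold for Mt1 (3.76 to 4.48) and 6.84-fold for Mt2 (5.84 to 7.97), and of the 10 genes it also held Slc40a1 past 2-fold, on 3 UMIs, and Tfrc below it, where 12.8% of all genes were higher and 10.7% lower. On day 7 it exceeded ECM myofibroblast-like barcodes 2.96-fold (2.81 to 3.12) and 4.98-fold (4.41 to 5.63). The Eln-led cluster thus held raised metallothionein transcripts in both earlier libraries, at levels under those of either day 14 class. The 17 mixed macrophage and spermatid cluster barcodes of day 7 held 207 Mt1 and 110 Mt2 UMIs among 32735. These shares were higher than in either day 14 class. Within the Eln-led cluster, Mt1 was at nearly the same level on both days, at a ratio of 0.96 (0.87 to 1.05), and Mt2 at 0.64 (0.54 to 0.75). Of the 6 genes with at least 20 UMIs there, 1 passed 2-fold from day 4 to day 7, where 9.33% of all genes were higher and 4.15% lower, and this was Slc39a14 on 3 and 22 UMIs.

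**Figure D2:**
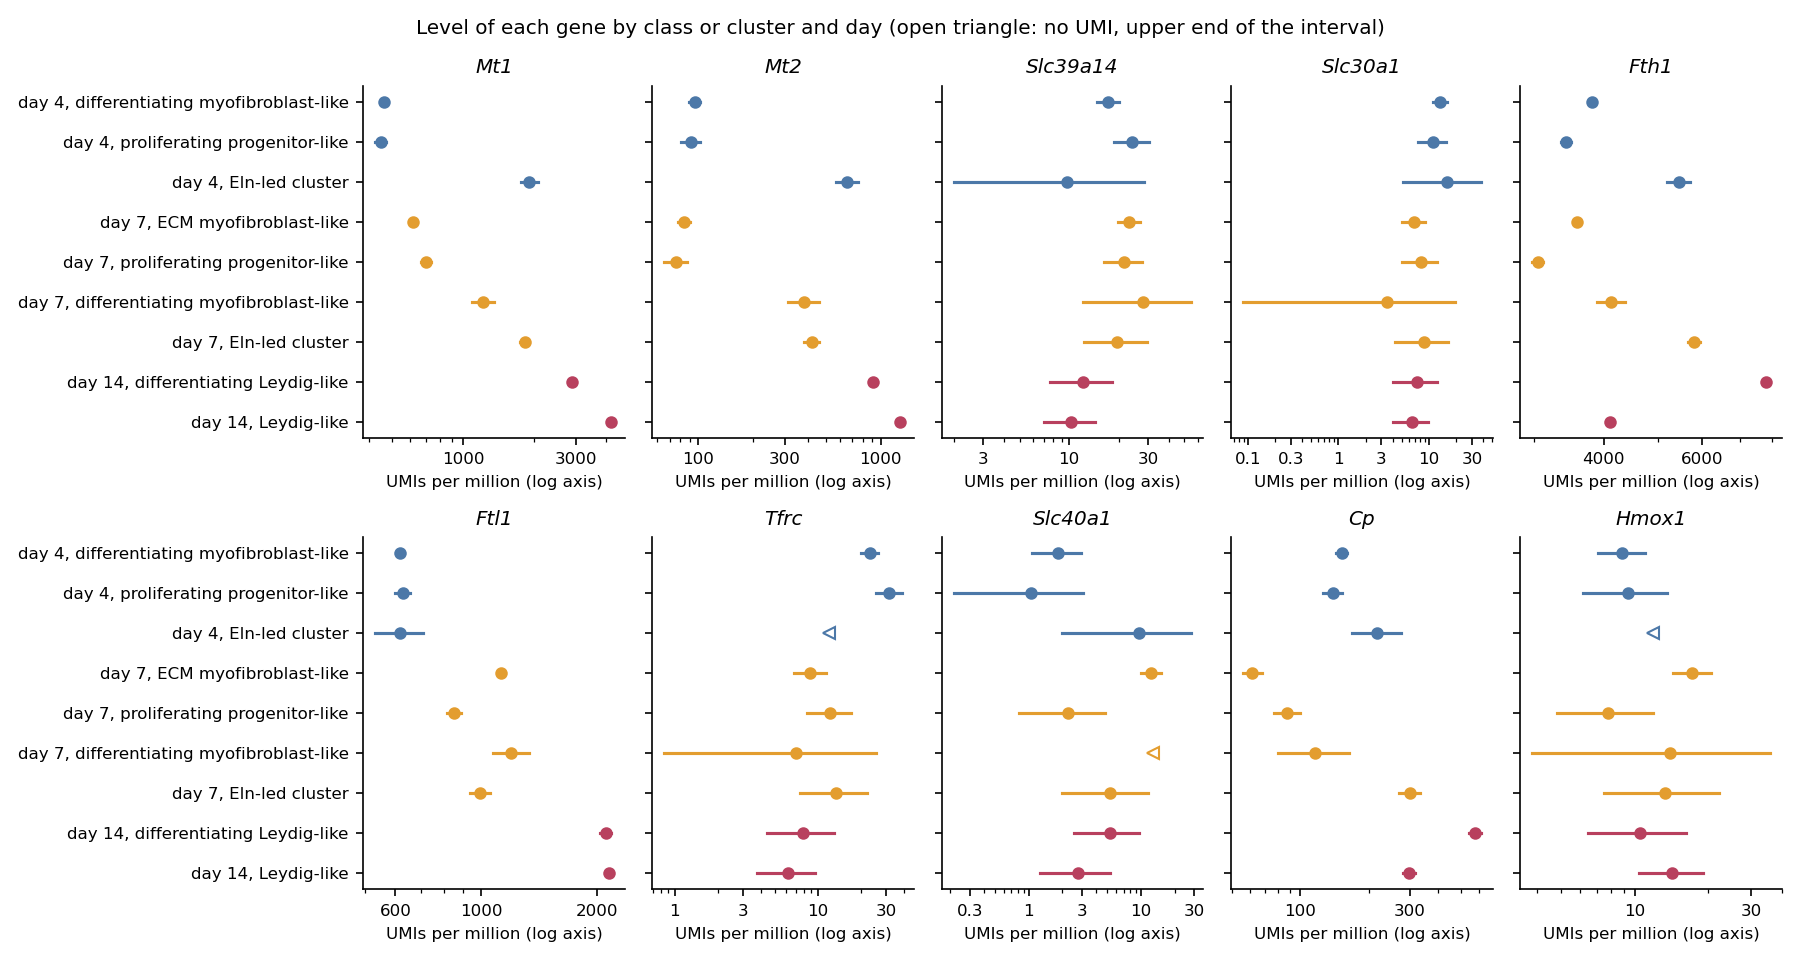
Points give CPM (log axes) for each of the 10 genes in the 9 class or cluster pools of at least 50 barcodes, coloured by day, lines give the 95% Poisson interval, and an open triangle marks the upper end of the interval where no UMI was seen. On days 4 and 7 Mt1, Mt2, Cp and Fth1 are highest in the Eln-led cluster, whereas Ftl1 separates the days more than the classes.

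On day 14 Mt1 was seen in nearly every group of barcodes. After barcodes that share their first 11 bases were summed and each group was thinned to 1500 UMIs, Mt1 had a median of 0 UMIs and a 90th percentile of 3 on day 4 (1862 groups), 1 and 4 on day 7 (1319 groups), and 4 and 10 on day 14 (551 groups). The share of groups with at least 1 Mt1 UMI was 45.4%, 60.0% and 94.4% at this depth. Thinning left out 165, 95 and 50 groups that were shallower. No class is known to lack Mt1, so no background share is available for it. Mt1 and Mt2 counts went together from group to group within each day, with Pearson r of 0.60, 0.67 and 0.63, a description in which both counts share the group's RNA quality and class.

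**Figure D3:**
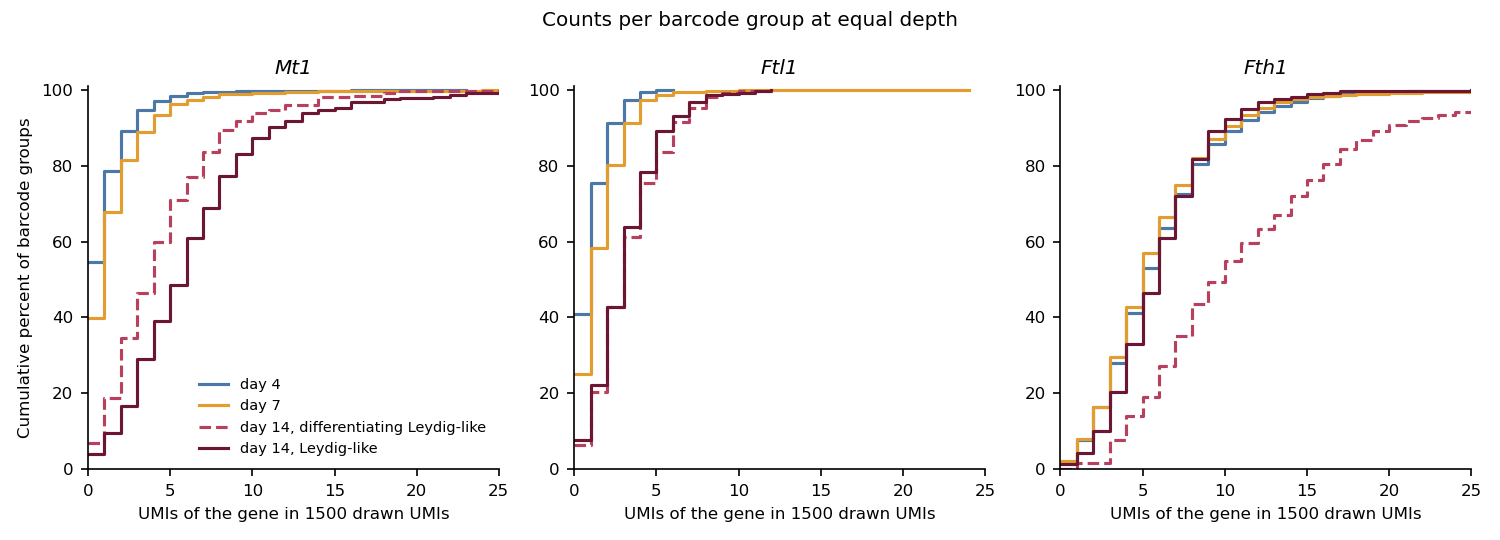
Each line gives the cumulative percent of barcode groups, at 1500 UMIs per group, with at most the number of UMIs on the horizontal axis, for Mt1, Ftl1 and Fth1. For Mt1 and Ftl1 both day 14 classes lie to the right of days 4 and 7, whereas for Fth1 only the differentiating Leydig-like line does.

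Beside the 2 members, the metallothionein list held Mt3, the brain-enriched family member, which counted 3, 3 and 54 UMIs over days 4, 7 and 14, a day 14 to day 4 ratio of 42.9 (13.9 to 214) that rests on 3 UMIs on day 4. Mt3 stood at 15.1 CPM in Leydig-like and 2.10 CPM in differentiating Leydig-like barcodes. Mt4 was at 0 UMIs on all days, which does not exclude a low level. Mtf1, which encodes the zinc-sensing activator, stood at 27.8, 19.95 and 19.2 CPM on days 4, 7 and 14, and so did not pass 2-fold in either direction.

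The zinc transporters did not follow the metallothioneins. Slc30a1 (chr1:191906767-191913247, plus), which exports zinc across the cell membrane and, like Mt1 and Mt2, is a known target of Mtf1, stood at 13.0 CPM on day 4 (165 UMIs), 7.48 on day 7 (87 UMIs) and 6.76 on day 14 (36 UMIs). Its day 14 to day 4 ratio was 0.52 (0.35 to 0.75), opposite in direction to Mt1 and short of 2-fold. The ratio stayed short of 2-fold in 8 of 10 alternative settings. Slc39a14 (chr14:70303469-70351425, minus), which imports zinc and iron that is not bound to transferrin, stood at 18.9, 22.4 and 10.7 CPM (239, 260 and 57 UMIs). Its level fell 2.09-fold from day 7 to day 14, a call lost in 3 of 10 alternative settings. Neither gene passed 2-fold between the classes of a day that were compared, and the interval of Slc39a14 excluded equal levels on day 4, at a ratio of 1.39 (1.03 to 1.85) of proliferating progenitor-like over differentiating myofibroblast-like barcodes. On day 14 Slc39a14 stood at 10.2 CPM (7.01 to 14.3) in Leydig-like and 12.1 CPM (7.67 to 18.1) in differentiating Leydig-like barcodes, and Slc30a1 at 6.48 and 7.36 CPM. Of the 14 other zinc transporter genes with at least 20 UMIs, 2 rose from day 4 to day 14 and none fell, where 16.3% of all genes rose and 17.6% fell. The 2 that rose were the importers Slc39a11, from 10.7 to 22.7 CPM, and Slc39a8, from 2.05 to 4.32 CPM. The same shares over all genes apply to the day 4 to day 14 counts of the other lists below.

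Among 10 copper handling genes, 1 rose and 1 fell from day 4 to day 14. Heph, a membrane-bound copper ferroxidase that acts with ferroportin, stood at 19.6, 18.8 and 97.9 CPM on days 4, 7 and 14, a rise of 4.98-fold (4.28 to 5.82) over day 4. Steap2, a metalloreductase, fell from 59.9 to 54.6 and 15.6 CPM, or 3.84-fold (3.06 to 4.88) from day 4 to day 14.

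The ferritin chains parted from each other. Ftl1 (chr7:45457944-45459884, minus), the light chain that helps mineralize iron inside the shell, stood at 625 CPM on day 4 (611 to 639), 1059 on day 7 (1040 to 1078) and 2196 on day 14 (2157 to 2237). It thus rose 3.52-fold (3.42 to 3.62) from day 4 to day 14 in 2 steps, of 1.69-fold and 2.07-fold, and the second step fell short of 2-fold when barcodes were thinned to 1500 UMIs. Fth1 (chr19:9980598-9985098, plus), the heavy chain with ferroxidase activity, stood at 3773, 3732 and 5721 CPM, a ratio of 1.52 (1.49 to 1.54) from day 4 to day 14 that did not pass 2-fold. On day 14 the 3 barcodes of the mixed macrophage and spermatid cluster, with 0.51% of that library's UMIs, held 2.29% of Fth1 and 3.84% of Ftl1 UMIs, and without that cluster the log2 ratio of Ftl1 from day 7 to day 14 was 1.01.

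Within day 14 it was the heavy chain that separated the classes. Fth1 stood at 7812 CPM (7686 to 7938) in differentiating Leydig-like and 4101 CPM (4031 to 4171) in Leydig-like barcodes, a ratio of 1.905 that lay just under the 2-fold line. Ftl1 stood at 2103 CPM (2038 to 2169) and 2145 CPM (2095 to 2196) in the same classes, a ratio of Leydig-like over differentiating Leydig-like of 1.02 (0.98 to 1.06). The Leydig-like Fth1 level was close to that of day 4 differentiating myofibroblast-like barcodes, at 3811 CPM, although their intervals did not overlap. The 2 classes also differed in depth, with medians of 5604.5 and 2206.5 UMIs per barcode. At 1500 UMIs per barcode group the median Fth1 count was 6 in Leydig-like and 10 in differentiating Leydig-like groups, and the median Ftl1 count was 3 in both.

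Fth1 UMIs per Ftl1 UMI were 6.04 (5.90 to 6.18) on day 4, 3.52 (3.455 to 3.596) on day 7 and 2.604 (2.549 to 2.661) on day 14. The ratio was lowest in Leydig-like barcodes, at 1.91 (1.86 to 1.97), and was 3.72 in differentiating Leydig-like, 3.17 in ECM myofibroblast-like and 6.18 in day 4 differentiating myofibroblast-like barcodes. In the Eln-led cluster it was 8.85 (7.61 to 10.3) on day 4 and 5.83 on day 7, the highest value of each day. UMIs were counted at the 3′ ends of transcripts and were not scaled to length, so the ratio can be compared between pools but does not give the chain composition.

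**Figure D4:**
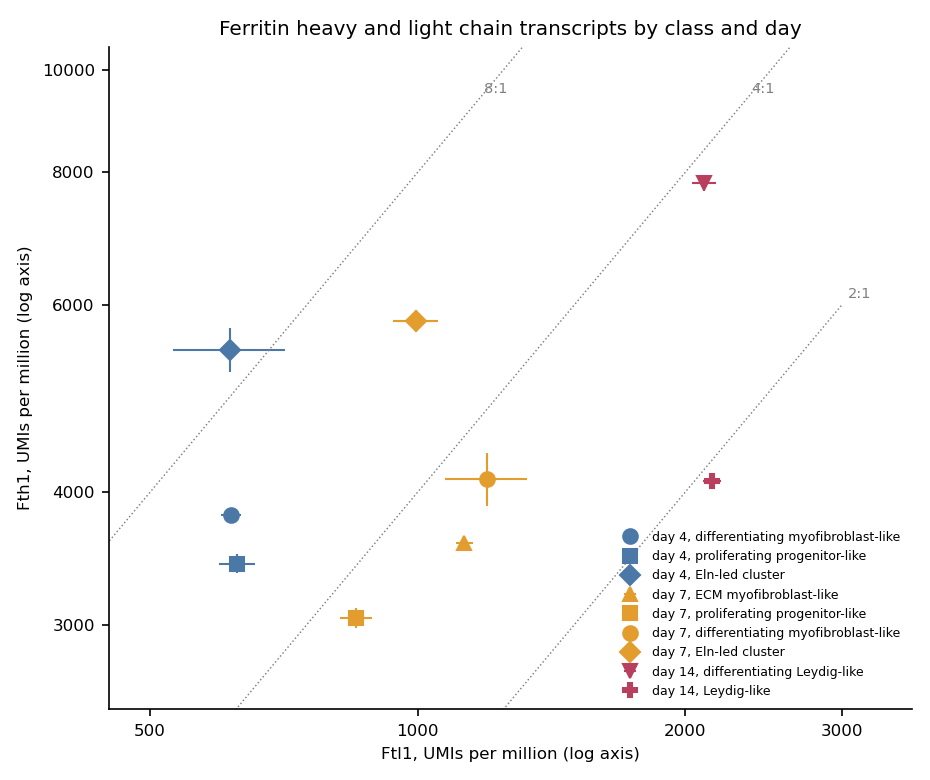
Each point gives Ftl1 (horizontal) and Fth1 (vertical) CPM on log axes in 1 class or cluster pool, coloured by day, with 95% Poisson intervals, and dotted lines mark Fth1 to Ftl1 ratios of 2, 4 and 8. Pools move right from day 4 to day 14, and at day 14 Leydig-like sits below differentiating Leydig-like at nearly the same Ftl1 level.

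Processed copies of ferritin genes can share reads with their parents. Of 10 copies in the list, 4 were found, and only Gm10116 (Ftl1-ps1 in GENCODE M21), of whose 31-base words 63.5% also occur in Ftl1 transcripts, had at least 20 UMIs. It stood at 8.60, 15.2 and 58.4 CPM on days 4, 7 and 14, a rise of 6.79-fold, so reads of Ftl1 may have been divided between them, and its level was small beside that of Ftl1. Mt1 and Mt2 transcripts shared no word of 31 bases.

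Tfrc (chr16:32608920-32632794, plus), the transferrin receptor, went the other way. It stood at 24.7 CPM on day 4 (313 UMIs), 10.1 on day 7 (117 UMIs) and 7.14 on day 14 (38 UMIs). It fell 2.45-fold (1.98 to 3.06) from day 4 to day 7, after which the day 14 interval of 5.05 to 9.80 overlapped that of day 7. The fall was seen in proliferating progenitor-like barcodes, which held 31.5 CPM on day 4 (25.4 to 38.7) and 12.2 CPM on day 7 (8.41 to 17.2), a fall of 2.58-fold (1.72 to 3.97). Tfrc alone of the 9 genes tested in that class passed 2-fold, where 4.27% of all genes were higher and 3.26% lower. Differentiating myofibroblast-like barcodes held 23.1 CPM on day 4 (20.1 to 26.4). The 78 left on day 7 held 2 Tfrc UMIs, or 6.99 CPM (0.85 to 25.3), an interval that overlapped that of day 4. On day 4 Tfrc stood at a ratio of 1.37 (1.06 to 1.75) in proliferating progenitor-like over differentiating myofibroblast-like barcodes, and at a log2 ratio of -0.07 after thinning to 1500 UMIs. The Eln-led cluster did not show the fall from day 4 to day 7, with no Tfrc UMI among 310376 on day 4 and 15 UMIs, or 13.4 CPM (7.48 to 22.0), on day 7. Its day 4 count was counted as past 2-fold below the 23.1 CPM of differentiating myofibroblast-like barcodes with 0 set to 3 UMIs, although the interval of that ratio reached 0.5195.

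Slc40a1 (chr1:45908068-45926523, minus), which encodes ferroportin, the iron exporter, was sparse and peaked on day 7. Day 4 held 24 of its UMIs (1.89 CPM, 1.21 to 2.82), day 7 held 106 (9.12 CPM, 7.46 to 11.03) and day 14 held 19 (3.57 CPM, 2.15 to 5.57). It rose 4.82-fold (3.07 to 7.85) from day 4 to day 7, the 99.5th percentile of all genes tested, and fell 2.55-fold (1.56 to 4.41) from day 7 to day 14. With each barcode given equal weight, the log2 ratio of the rise was 1.32 in place of 2.27 and that of the fall was -0.58, short of 2-fold. Of its 106 UMIs on day 7, 91 lay in ECM myofibroblast-like barcodes, at 12.4 CPM (10.0 to 15.2), against 2.22 CPM (0.81 to 4.83) in proliferating progenitor-like barcodes of that day. The class value rested on 1 of its clusters, whose 556 deep barcodes held 84 of the 91 UMIs at 14.8 CPM (11.8 to 18.4), while the other large cluster of 683 barcodes held 7 UMIs at 4.36 CPM (1.75 to 8.98), an interval that overlapped that of proliferating progenitor-like barcodes. ECM myofibroblast-like barcodes also held Hmox1 at a 2.21-fold (1.39 to 3.70) higher level, and these were the only 2 of the 10 genes past 2-fold between those classes, where 6.59% of all genes were higher and 4.2% lower in proliferating progenitor-like barcodes. Macrophages, which use ferroportin to recycle iron, were few on day 7: their 10 markers summed to 28.6 CPM, with C1qa and Cd74 at 0, and 72.1% of those UMIs and 2 of the Slc40a1 UMIs lay in the mixed cluster of 17 barcodes.

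Cp (chr3:19957054-20009145, plus), which encodes the copper ferroxidase ceruloplasmin, dipped and then rose. It stood at 151 CPM on day 4, 94.3 on day 7 and 404 on day 14 (387 to 421), and rose 4.28-fold (3.98 to 4.61) from day 7 to day 14. Its pattern followed Fth1 rather than Ftl1 between the day 14 classes and in the Eln-led cluster of day 7. It did not between proliferating progenitor-like and ECM myofibroblast-like barcodes of day 7. The ratio of the former over the latter was 1.42 (1.21 to 1.67) for Cp and 0.85 (0.83 to 0.87) for Fth1. At day 14 Cp stood at 577 CPM (544 to 612) in differentiating Leydig-like and 298 CPM (280 to 318) in Leydig-like barcodes, a ratio of 1.94. On day 7 it stood at 300 CPM in the Eln-led cluster, 4.87-fold (4.21 to 5.62) above the 61.7 CPM of ECM myofibroblast-like barcodes, its lowest pool. Of the set, Cp, Mt1 and Mt2 were at least 2-fold higher in the day 7 Eln-led cluster, where 6.8% of all genes were. Slc40a1 was lower there, at 5.34 CPM on 6 UMIs against 12.4 CPM on 91, where 7.31% of all genes were lower. The ratio was 0.43 (0.15 to 0.97), and the ECM myofibroblast-like cluster of 683 barcodes stood at 4.36 CPM (1.75 to 8.98).

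Of the 13 other genes of iron uptake, storage and export with at least 20 UMIs, 4 rose from day 4 to day 14. Lcn2, which binds iron-carrying siderophores, had the largest change, from 2.45 to 1.81 and 124 CPM, a rise of 50.7-fold (35.4 to 75.2), and stood at 186 CPM in Leydig-like and 31.02 CPM in differentiating Leydig-like barcodes. Heph, described above, rose 4.98-fold. Hfe, which interacts with the transferrin receptor, rose from 4.10 to 12.2 CPM, and Trf, transferrin itself, from 3.79 to 9.02 CPM. Of 10 iron sensing genes, none rose and 1 fell, the signalling inhibitor Smad6 (44 UMIs on day 4, 3 on day 14), while Aco1 and Ireb2, the genes of the iron regulatory proteins that bind the hairpins shown above, stood at 42.04 and 30.8 CPM on day 4 and 42.6 and 24.6 CPM on day 14.

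Hmox1 (chr8:75093621-75100589, plus), which breaks heme down and frees its iron, did not pass 2-fold between any of the days. It stood at 8.91 CPM on day 4 (113 UMIs), 14.4 on day 7 (168 UMIs) and 12.8 on day 14 (68 UMIs), and its day 14 to day 4 ratio was 1.43 (1.05 to 1.95). Its highest large pool was ECM myofibroblast-like of day 7, at 17.2 CPM (14.3 to 20.5), and its levels in Leydig-like and differentiating Leydig-like barcodes, 14.2 CPM (10.4 to 18.9) and 10.5 CPM (6.42 to 16.2), overlapped. No Hmox1 UMI lay in the mixed macrophage and spermatid cluster on day 7, and 2 of 68 lay there on day 14. Of the 13 other genes of the heme list, 3 rose and none fell from day 4 to day 14. Alas1, the rate-limiting enzyme of heme synthesis, rose 5.47-fold (4.92 to 6.10) from 38.6 to 211 CPM, and stood at 266 CPM in Leydig-like and 133 CPM in differentiating Leydig-like barcodes. Slc48a1, a heme transporter, rose from 36.9 to 121 CPM, and Ppox, a late enzyme of the pathway, from 1.89 to 3.94 CPM on 24 and 21 UMIs. Of 10 other genes known as targets of the oxidative stress factor NRF2, which also drives Hmox1, Osgin1 rose from 37.5 to 92.8 CPM, Txnrd1 fell from 315 to 106 CPM and Slc7a11 fell from 6.23 to 3.01 CPM.

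**Figure D5:**
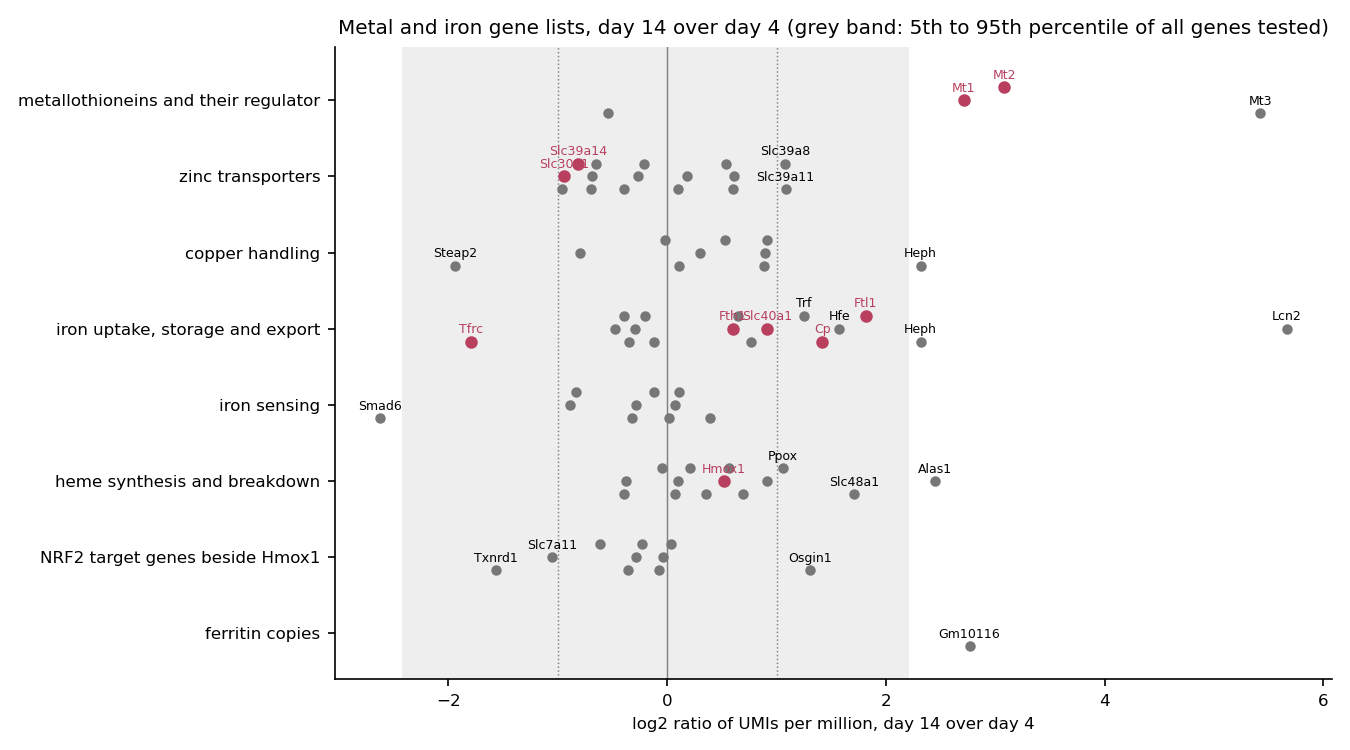
Each point is 1 reported gene with at least 20 UMIs in days 4 and 14 together, placed by its log2 ratio of CPM on day 14 over day 4, in rows for the 8 lists. Red points are the 10 genes followed here, dotted lines mark 2-fold and the grey band the 5th to 95th percentile of all genes tested, outside which lie Mt1, Mt2, Mt3, Heph, Lcn2, Alas1, Gm10116 and Smad6.

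The other comparisons within a day placed fewer of the genes past 2-fold than those of the Eln-led cluster. Between Leydig-like and differentiating Leydig-like barcodes of day 14, 0 of the 9 genes with at least 20 UMIs passed it in either direction, where 4.7% of all genes were higher and 6.63% lower, although the intervals of Fth1, Cp, Mt1 and Mt2 excluded equal levels. Between proliferating progenitor-like and differentiating myofibroblast-like barcodes of day 4, 0 of the 10 passed it, where 6.36% of all genes were higher and 3.49% lower. In that comparison the ratios of Mt1, Mt2 and Ftl1 were 0.97 (0.91 to 1.03), 0.95 (0.83 to 1.09) and 1.02 (0.96 to 1.07). With barcode groups summed before clustering, Mt1 and Mt2 were higher in proliferating progenitor-like barcodes, at log2 ratios of 0.65 and 0.48.

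Genes most like 4 members across the 7 pools of named classes with at least 50 barcodes were ranked by Pearson r of log2(CPM + 1), among 4635 candidate genes at 50 CPM or more in some pool. For Mt1 they were Ndufc2, Gm2a and Alg1 (r of 0.99 each), for Fth1 Ccni, Btg2 and C1ra (0.99, 0.97 and 0.96), for Tfrc 0610037L13Rik, Epc2 and 4921524J17Rik (0.99, 0.99 and 0.98) and for Hmox1 Ndfip1, BC031181 and Cdkn1a (0.92, 0.88 and 0.88). With 7 points that share 3 libraries, and so many candidates, high values of r are easily reached, and they are given as a description only.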

How the data were processed

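Drop-seq libraries were aligned by the authors (STAR, mouse build GRCm38) and tallied with Drop-seq tools. The deposited values are raw UMI counts of genes in barcodes. In the merged table, barcodes under 500 detected genes or over 10% mitochondrial counts had already been removed by the authors. The deposited tables of days 4, 7 and 14 held more barcodes, at 3300, 2400 and 1300. Per the labels, STAR 2.5.2a, Picard 2.6.0 and SAMtools 1.2 were used, and the STAR version differs between sources. The merged table was used, and 495 of its columns, which match no sample analysed here, were not used. Its counts equalled those of the deposited table of each day, entry by entry.

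Counts were summed over barcodes of a day or class and divided by the pool's total (CPM). Intervals are exact 95% Poisson for levels and exact conditional binomial for ratios. A gene was called past 2-fold with at least 20 UMIs in both pools together. A pool at 0 was set to 3 UMIs. Clusters came from Seurat 5.3.0 (R 4.3.3, 2000 variable genes, 20 components, resolution 0.8), without the members and list genes, and were named from marker lists. Classes under 50 barcodes were not compared. Scrublet (scanpy 1.11.5) called 3 of 6124 barcodes as doublets and was taken not to have worked, so no doublet was removed. Ratios were tested on simulated data first. Members and lists were chosen with earlier results of these data known. From each list, genes past 2-fold between days 4 and 14 are named, at most 4 in each direction, except 1 result that is not reported here, and other values were chosen after they were seen. Old symbols were matched through RefSeq synonyms. Sequences are from RefSeq (GRCm38.p6) and GENCODE M21. The alternatives tried are given in the closing section.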

Additional observations from a re-analysis of the deposited data

How the results depend on the processing

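No paired analysis was possible because each day has 1 library and no test was made. Of 57 alternative counts of members past 2-fold, 52 stayed within 1.5 times the count reported. For Leydig-like against differentiating Leydig-like barcodes of day 14 the count of 0 became 1 after thinning to 1500 UMIs (Cp), with each barcode classed by itself (Slc30a1) and with barcode groups summed before clustering (Fth1). For proliferating progenitor-like against differentiating myofibroblast-like barcodes of day 4 it became 2 after thinning (Slc30a1 and Hmox1) and 1 with the members kept in the clustering (Slc40a1). Of 17 gene and comparison pairs past 2-fold for which alternatives were run, all 17 kept their direction and 13 kept the call in every alternative run. The exceptions were Slc39a14, Ftl1 and Slc40a1 from day 7 to day 14 and Slc40a1 in the Eln-led cluster. From day 4 to day 14, Slc30a1 and Slc39a14 stayed under 2-fold in 8 of 10 alternatives each and Slc40a1 in 8 of 9. No alternatives were run for the Eln-led cluster of day 4, for proliferating progenitor-like against ECM myofibroblast-like barcodes of day 7, or for the comparisons of 1 class or cluster between days. Values under 2-fold changed sign for Hmox1 from day 7 to day 14 (to 0.12 on the log2 scale), for Ftl1 (to -0.09) and Tfrc (to 0.34) between the day 14 classes, for Slc39a14 in the Eln-led cluster (to 0.05), and on day 4 between proliferating progenitor-like and differentiating myofibroblast-like barcodes for Mt1, Mt2, Fth1, Cp, Tfrc and Hmox1 (Mt1 from -0.04 to 0.65). Mt1 from day 4 to day 14 ranged from 2.63 to 2.77 on the log2 scale over 10 alternatives, Mt2 from 2.90 to 3.16, Ftl1 from 1.69 to 1.87 and Tfrc from -1.95 to -1.32. Centring on the median gene moved every log2 ratio by -0.10 from day 4 to day 7 and by 0.14 from day 7 to day 14, and ended the call of Slc39a14 from day 7 to day 14, at -0.92. The planned day 7 class of differentiating Leydig-like barcodes held 27, so the Eln-led cluster was used in its place, a choice made after the data were seen. In 6 other settings, with other clusterings or with each barcode classed by itself, that class held 256 to 322 barcodes. Of these, 158 to 264 came from the Eln-led cluster. The class stood above ECM myofibroblast-like barcodes by 1.51 to 1.68 on the log2 scale for Mt1 and by 2.20 to 2.51 for Cp. The alternative without called doublets was not run, since 3 were called. Leaving out the 6% of barcodes with the highest doublet score, keeping 1 barcode per group and leaving out the mixed cluster were added after the data were seen. Genes with under 100 UMIs in a library, which are Slc30a1, Tfrc, Slc40a1, Hmox1 and Slc39a14, are limited by depth.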

Other observations

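The 56 barcodes of the mixed macrophage and spermatid cluster were part of the day totals but of no class compared. Pooled over the 3 days, they held the highest ferritin levels of any pool, with Fth1 at 11077 CPM (10581 to 11590) and Ftl1 at 3885 CPM (3594 to 4194). The days differed within this pool. Its 3 barcodes of day 14 held 1239 macrophage marker, 699 Fth1, 449 Ftl1 and 14 Mt1 UMIs among 27152. The 17 of day 7 held 240, 576, 125 and 207 among 32735, and the 36 of day 4 held 1, 601, 84 and 201 among 109470. The pooled values therefore do not describe 1 kind of barcode. The pool's Mt1 level was 2492 CPM and its Mt2 level 1205 CPM, and Mt1 UMIs per Mt2 UMI were 2.07, the lowest of all pools. Elsewhere that ratio was 3.29 on day 14 and reached 9.24 (7.99 to 10.7) in proliferating progenitor-like barcodes of day 7, in which Mt1 stood 1.55-fold (1.44 to 1.66) above its day 4 level in the same class while Mt2 stood at 0.825 (0.684 to 0.994) of its own.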
